A study of Homo sapiens with 8 samples.

Results

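The 47 genes described here belong to the TGF-beta and BMP signalling pathways: ligands, the proteins that store them, receptors, SMAD proteins, antagonists and the ID target genes. They were chosen by name. Of the 47, 46 had transcripts in the deposited table, out of 52719 genes in all. GDF10 had no transcript that could be matched, so it is named only. Of the 46, 37 reached a mean of 1 TPM over the 8 libraries and were tested among 17077 such genes. TPM is a share of a library's transcripts corrected for their length. Levels of different genes can therefore be set side by side, but sequencing depth is not kept and no counting interval can be given.

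The cells were SH-SY5Y, a human neuroblastoma line that carries features of sympathetic neurons. In 4 libraries (replicates 21 to 24) the cells had been differentiated with 9-cis retinoic acid, a ligand of the nuclear receptors RAR and RXR, at 1 µM over 7 days. The other 4 libraries (replicates 17 to 20) came from undifferentiated cells, for which no dose or day is recorded, so the treatment and the time in culture cannot be told apart. The growth medium of both groups contained foetal calf serum, itself a source of growth factors of the TGF-beta family. The labels do not say that replicates were separate cultures, so p-values reflect only how these libraries spread, possibly for technical reasons.

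Ligands of the TGF-beta family are secreted dimers that bring type I and type II receptor kinases together. TGF-beta and activin receptors phosphorylate SMAD2 and SMAD3, BMP receptors phosphorylate SMAD1, SMAD5 and SMAD9, and both sets enter the nucleus with SMAD4. TGF-beta is secreted in a latent complex held in the matrix by latent TGF-beta binding proteins. In chick and mouse embryos, BMPs from the dorsal aorta start the sympathetic programme in neural crest cells, the lineage neuroblastoma comes from.

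Replicate 22 stood apart from the other libraries given 9-cis retinoic acid. Across genes, which are not independent replicates, Pearson's r of log2(TPM + 1) was 0.951 to 0.964 between replicate 22 and replicates 21, 23 and 24, against 0.965 to 0.970 among those 3. Undifferentiated libraries correlated at 0.972 to 0.974, and libraries of different groups at 0.896 to 0.915. Among the 4 libraries given 9-cis retinoic acid, replicate 22 was the lowest in 25 of the 37 tested pathway genes (67.6%) and in 56.0% of all tested genes. Results that turn on it are given with and without it. By their labels, undifferentiated replicates 17 and 18 were run in lane 7 and the remaining 6 libraries in lane 8. Between the lanes, within undifferentiated cells, limma called 29 of all tested genes (0.17%) and 713 (4.18%) had an unadjusted p under 0.05. None of the 37 pathway genes was among these (smallest unadjusted p = 0.0845 in limma).

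The sample type was checked against marker genes. All 9 sympathetic neuroblastoma markers were present in both groups, with a summed level of 1398 to 1647 TPM in 9-cis retinoic acid libraries and 2142 to 2218 TPM in undifferentiated libraries. Of the 9, 7 were called lower, GATA3 and DBH among them, HAND2 was not called, and PHOX2A was called higher, at 427 ± 100.6 TPM against 224 ± 13.3 TPM (SD, n = 4 each). Markers of Schwann cells and their precursors summed to 14.8 to 18.2 TPM and 6.24 to 8.50 TPM; 1 of 6, S100B, was called higher, and the defining genes SOX10 and FOXD3 were listed at 0 in every library. Markers of fibroblasts and mesenchyme summed to 317.7 to 353.6 TPM with 9-cis retinoic acid and 221.6 to 244.3 TPM without, with 7 of 9 present in each group. Of the 9, FAP, COL1A1 and PDGFRA were called higher and 4 were not called: PDGFRB, LUM, DCN and TWIST1, the last at 110.6 ± 10.4 TPM against 121 ± 7.32 TPM. FAP held the widest gap, at 62.3 ± 3.96 TPM against 1.65 ± 0.125 TPM in undifferentiated cells (SD, n = 4 each). PRRX1 did not exceed 0.0121 TPM and COL1A2 0.167 TPM in any library. Blood markers summed to 20.5 to 24.0 TPM and 1.24 to 1.57 TPM, with CD68 at 20.9 ± 1.69 TPM against 0.339 ± 0.121 TPM and CD3E listed at 0 throughout. Epithelial markers summed to 13.7 to 18.3 TPM and 2.31 to 3.75 TPM, with KRT18 at 12.1 ± 1.69 TPM against 0.262 ± 0.0831 TPM. Of the other epithelial markers KRT8 was called higher and EPCAM was not called, while CDH1, at 0.103 TPM against 0.234 TPM, and KRT19, at 0.240 TPM against 0.291 TPM, were too low to test. The part of these markers in the results was not tested. In RNA from whole cultures, fewer cells of a type and less RNA per cell cannot be told apart.

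The comparison asks how 9-cis retinoic acid differentiation alters the transcripts of this pathway. Of the 37 tested genes, 21 (56.8%) were higher and 6 (16.2%) lower in cells given 9-cis retinoic acid (limma on log2(TPM + 1), Benjamini-Hochberg adjusted p under 0.05 over all tested genes). Over all 17077 genes, 51.3% were called, 33.9% higher and 17.4% lower. The share called lower was thus close to that of all genes. The median log2 fold change of the pathway genes was 0.35, beside 0.10 for all tested genes. In 20 pathway genes every 9-cis retinoic acid library lay above every undifferentiated library, and in 6 every one lay below, beside 32.3% and 17.3% of all tested genes. BMP2 and GDF15 averaged under 1 TPM in undifferentiated cells and entered the test through their level with 9-cis retinoic acid.

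Without replicate 22, 26 pathway genes were higher and 6 lower, with a median of 0.44, while all genes gave 39.0% higher and 18.1% lower with a median of 0.15. The genes gained were GDF11, INHBA, SMAD2, SMAD9 and SMURF2. The median of all genes was -0.07 after quantile normalization and -0.02 after scaling by median-of-ratios size factors, so a fold change near 0 has no firm sign. With median-of-ratios scaling 18 pathway genes were higher and 7 lower (27.1% and 26.1% of all genes), and with quantile normalization 19 and 8 (24.4% and 29.9%). Within lane 8 alone, 19 were higher and 3 lower (25.9% and 11.2%). Of the 27 genes called, 21 kept their direction and their call in every one of up to 16 alternatives that tested them. Fold changes below are on the log2(TPM + 1) scale with their standard error, a scale that understates changes of genes at low levels.

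**Figure D1:**
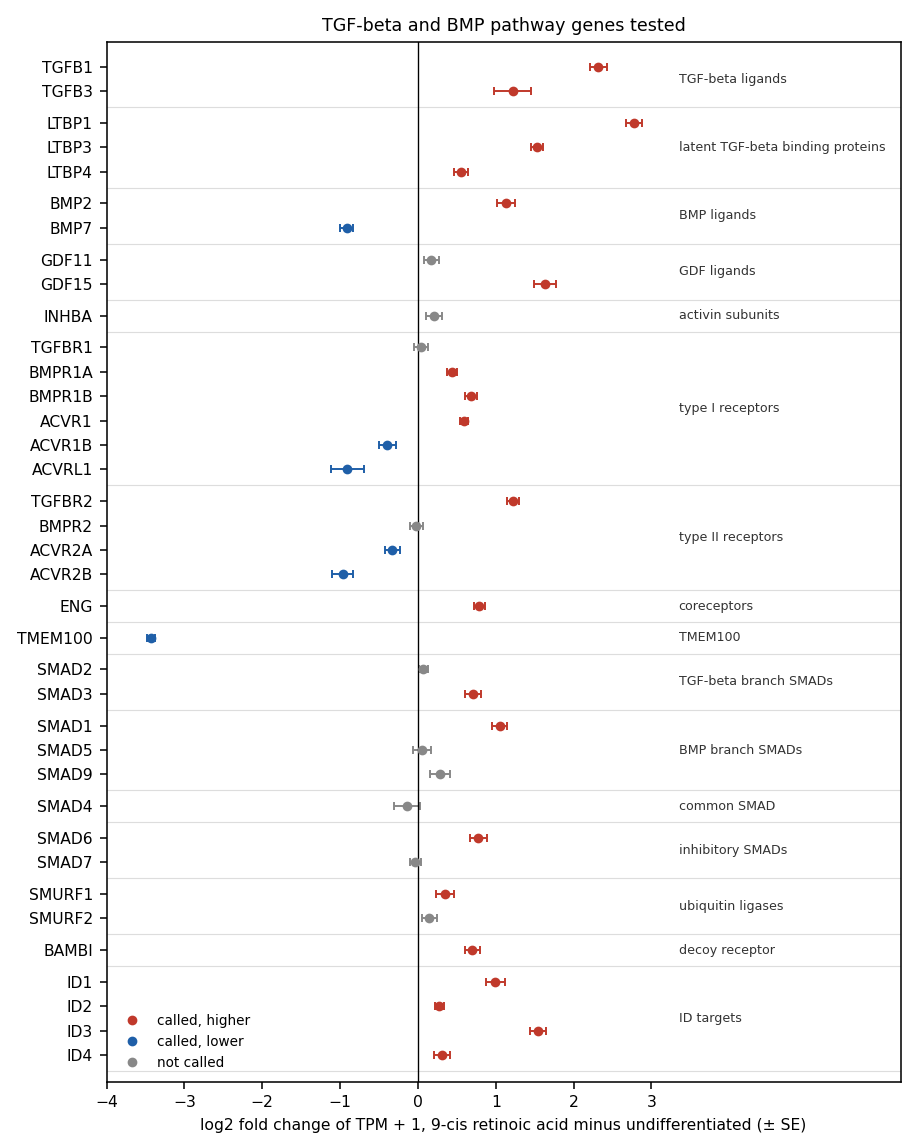
Log2 fold change of TPM + 1 (9-cis retinoic acid minus undifferentiated, horizontal axis) of the 37 tested pathway genes, ordered by role, with bars for the standard error over 4 libraries a group. TMEM100 lies furthest left at -3.43 and LTBP1 furthest right at 2.78; of the grey genes, which were not called, INHBA, TGFBR1, SMAD2 and SMAD5 change sign with quantile normalization.

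Genes that make and store TGF-beta were higher in differentiated cells. TGFB1, the TGF-beta isoform most widely made, had 14.1, 19.5, 15.4 and 14.8 TPM in replicates 21 to 24, given 9-cis retinoic acid, against 2.29, 2.18, 2.66 and 2.37 TPM in undifferentiated replicates 17 to 20. Each library of differentiated cells lay far above all undifferentiated ones, and replicate 22 was the highest. The rise was 2.32 ± 0.11 (limma, adjusted p = 6.95e-07). Its protein-coding transcript TGFB1-201 carried most of this, with a mean of 12.4 TPM against 2.12 TPM. TGFB1 lies on the minus strand of chromosome 19, from 41301587 to 41353911 on GRCh38.

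TGFB3, an isoform active in palate and lung development of the mouse, had 14.5, 6.95, 13.8 and 16.4 TPM with 9-cis retinoic acid, against 4.96, 3.77, 5.08 and 5.25 TPM in undifferentiated cells. The groups did not overlap, but replicate 22 came close to the undifferentiated range. It rose by 1.22 ± 0.24 (limma, adjusted p = 0.00284), and by 1.47 without replicate 22 (limma, adjusted p = 2.87e-05). In the protein-coding transcript TGFB3-201 the groups also lay apart, but replicate 22 was not low, with 3.48, 3.54, 3.96 and 3.59 TPM against 1.29, 1.12, 1.29 and 1.25 TPM. The low value of replicate 22 lay in the non-coding transcripts TGFB3-205 and TGFB3-206, at 0.642 and 2.11 TPM there, against means of 3.63 and 4.72 TPM over the 4 libraries. TGFB2, an isoform needed for heart development in the mouse, had 1.40, 1.83, 1.19 and 1.22 TPM against 0.2996, 0.331, 0.327 and 0.269 TPM. It stayed under the mean needed for testing, and without that filter it was called higher (limma, adjusted p = 0.000279). Summed, the 3 TGF-beta isoforms held 30.2 ± 1.71 TPM with 9-cis retinoic acid and 7.44 ± 0.806 TPM without (SD, n = 4 each). TGFB1 made up 53.0% of that sum in differentiated cells and 32.01% in undifferentiated cells, and TGFB3 42.3% and 63.8%.

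All 3 latent TGF-beta binding proteins of the list rose. LTBP1, which tethers latent TGF-beta to fibrillin and fibronectin fibres, had 17.2, 15.2, 16.8 and 18.4 TPM with 9-cis retinoic acid, against 1.24, 1.74, 1.96 and 1.54 TPM in undifferentiated cells. It gave the largest rise among the tested pathway genes, at 2.78 ± 0.10 (limma, adjusted p = 2.24e-07). LTBP3, which also binds latent TGF-beta, was the most abundant of the 3, with 205, 168, 189 and 202 TPM against 69.0, 60.1, 63.5 and 68.9 TPM. Groups were widely separated for both genes, and for LTBP3 replicate 22 was the lowest of its group. LTBP3 rose by 1.53 ± 0.07 and LTBP4, which serves elastic fibre assembly, by 0.55 ± 0.09 (limma, adjusted p = 9.74e-07 and 0.00126). The share of LTBP1 in the summed level of the 3 was 6.62% in differentiated and 1.64% in undifferentiated cells. The sums of LTBP3 and LTBP4, and so the shares, include non-coding transcripts. The coding LTBP3-221 averaged 35.85 TPM against 12.87 TPM, and the coding LTBP3-202 27.5 TPM against 2.49 TPM. Among transcripts that retain an intron, LTBP3-204 averaged 24.23 TPM against 14.87 TPM and LTBP3-209 21.01 TPM against 7.46 TPM. LTBP4-222, which also retains an intron, averaged 7.09 TPM against 4.30 TPM, and the coding LTBP4-229 3.47 TPM against 1.51 TPM. Of the 9 mesenchymal markers given above, 3 were also called higher, and their part in the result was not tested.

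BMP and GDF ligands split. BMP7, a ligand needed for kidney and eye development in the mouse, had 3.27, 3.25, 3.04 and 3.49 TPM with 9-cis retinoic acid, against 6.23, 7.19, 7.90 and 6.85 TPM in undifferentiated cells. Every differentiated library lay below every undifferentiated one, and BMP7 fell by 0.91 on the log2 scale (SE 0.08; limma, adjusted p = 3.66e-05). BMP2, a ligand that induces bone and acts on sympathetic precursors, had 1.82, 2.22, 2.24 and 1.68 TPM against 0.317, 0.299, 0.504 and 0.325 TPM. It rose by 1.13 ± 0.12 (limma, adjusted p = 8.46e-05), though in both groups its level was low. Summed over the BMP ligands of the list, the level was 5.30 ± 0.137 TPM with 9-cis retinoic acid and 7.48 ± 0.830 TPM without (SD, n = 4 each). BMP4 did not exceed 0.175 TPM in any library, BMP6 was at or near 0, and BMP5 was listed at 0 throughout.

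GDF15, a stress-induced ligand whose receptor lies outside the SMAD pathway, had 3.83, 5.48, 6.04 and 4.70 TPM with 9-cis retinoic acid, against 1.16, 0.930, 0.690 and 0.920 TPM in undifferentiated cells. The groups lay apart and the rise was 1.64 ± 0.14 (limma, adjusted p = 2.51e-05). GDF11, a relative of myostatin that patterns the spine in the mouse, averaged 20.6 ± 2.86 TPM against 18.0 ± 0.452 TPM (SD, n = 4 each) and was not called (0.17 ± 0.10; limma, adjusted p = 0.173). INHBA, the activin A subunit, averaged 6.29 ± 0.854 TPM against 5.29 ± 0.416 TPM and was not called either (0.21 ± 0.10; limma, adjusted p = 0.131). Both were called higher without replicate 22, at 0.27 and 0.29 (limma, adjusted p = 0.00134 and 0.0131), whereas INHBA stood at -0.03 with quantile normalization. INHBB, the activin B subunit, was near 0.

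**Figure D2:**
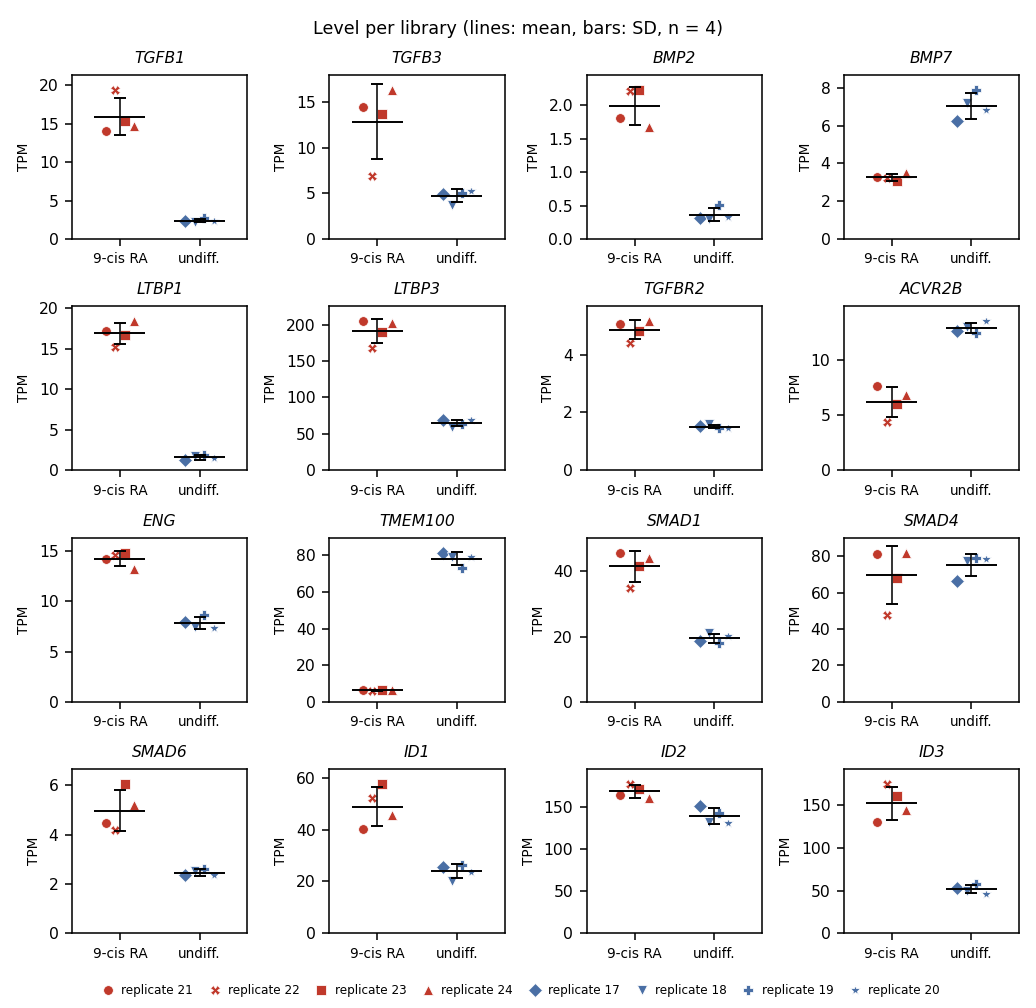
Level in TPM (vertical axes, from 0) of 16 pathway genes in each library, 9-cis retinoic acid on the left and undifferentiated on the right of each panel, with the mean and SD of 4 libraries. Replicate 22 (crosses) is the lowest of its group for TGFB3, LTBP1, LTBP3, TGFBR2, ACVR2B, TMEM100, SMAD1, SMAD4 and SMAD6, and the highest for TGFB1, ID2 and ID3.

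The type I receptors moved apart from each other. BMPR1A, BMPR1B and ACVR1, which serve BMP ligands, were higher in differentiated cells, with means of 15.4 ± 1.23, 29.5 ± 3.003 and 20.1 ± 0.763 TPM against 11.2 ± 0.404, 18.0 ± 0.888 and 12.98 ± 0.358 TPM (SD, n = 4 each). Their rises were 0.43 ± 0.07, 0.68 ± 0.08 and 0.60 ± 0.05 (limma, adjusted p = 0.000701, 0.000116 and 1.97e-05), and in none of the 3 did the groups overlap. ACVR1B, the type I receptor of activins, fell to 16.2 ± 2.49 TPM with 9-cis retinoic acid, against 21.4 ± 1.598 TPM in undifferentiated cells (SD, n = 4 each). The change was -0.39 ± 0.11 (limma, adjusted p = 0.0176), and the call was lost within lane 8 and without replicate 17, at -0.33 and -0.35. TGFBR1, the type I receptor of TGF-beta, was not called, with 34.4 ± 4.53 TPM against 33.4 ± 1.88 TPM and a fold change of 0.04 ± 0.09 (limma, adjusted p = 0.773). That fold change was -0.10 after quantile normalization and -0.09 after median-of-ratios scaling.

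Among type II receptors, TGFBR2, which binds TGF-beta itself, had 5.04, 4.41, 4.82 and 5.15 TPM with 9-cis retinoic acid, against 1.51, 1.59, 1.47 and 1.46 TPM in undifferentiated cells. The 4 libraries of each group lay close together and the groups far apart, with a rise of 1.22 ± 0.08 (limma, adjusted p = 5.15e-06). ACVR2B, a receptor of activins and GDF11, had 7.65, 4.43, 6.02 and 6.85 TPM against 12.7, 13.03, 12.5 and 13.6 TPM. It fell by 0.97 on the log2 scale (SE 0.14; limma, adjusted p = 0.000442), and by 0.84 without replicate 22, its lowest library. ACVR2A, its close relative, was lower at 7.06 ± 0.771 TPM against 9.12 ± 0.845 TPM (-0.33 ± 0.09; limma, adjusted p = 0.0179), and this call was lost within lane 8 and without replicates 17, 19 or 23. BMPR2, the type II receptor of BMPs, averaged 16.2 ± 1.86 TPM against 16.3 ± 0.661 TPM and was not called (-0.02 ± 0.08; limma, adjusted p = 0.868), but it was called lower with median-of-ratios scaling and quantile normalization, at -0.14 and -0.20 (limma, adjusted p = 0.0471 and 0.00905). Of the summed type II receptor level, TGFBR2 held 14.2% ± 0.896 in differentiated and 3.78% ± 0.127 in undifferentiated cells, ACVR2B 18.0% ± 1.94 and 32.5% ± 1.28, and BMPR2 47.1% ± 0.725 and 40.9% ± 1.44 (SD, n = 4 each).

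The gene-level value of BMPR2 covered a shift between its transcripts. BMPR2-201, whose coding sequence has 530 codons, made up 57.9%, 62.7%, 62.1% and 57.5% of the gene's TPM in replicates 21 to 24, against 26.1%, 33.1%, 27.7% and 28.99% in replicates 17 to 20. BMPR2-202, with 1038 codons, made up 40.3%, 35.7%, 37.3% and 41.3% against 68.0%, 64.0%, 67.5% and 66.5%. The groups did not overlap for either transcript. The differences were 31.0 and -27.8 percentage points (limma on the arcsine square root of the share, adjusted p = 0.00123 for each), and both were called in all 11 alternatives. In TPM, BMPR2-201 averaged 9.66 ± 0.752 against 4.74 ± 0.681 and BMPR2-202 averaged 6.28 ± 1.104 against 10.8 ± 0.202 (SD, n = 4 each). BMPR2-201 lacks exon 12 of BMPR2-202, the 1280 bases at chr2:202555252-202556531 on the plus strand (GRCh38, GENCODE 29), which code for most of the long cytoplasmic tail particular to this receptor. In all, BMPR2-202 has 11461 bases and BMPR2-201 9683, so the transcripts also differ in length outside exon 12. Which of these parts the shares rest on was not tested. The junctions at exon 12 are shown here from the last 30 bases of exon 11 onwards, with the 30 bases of the exon joined to it in capitals.
BMPR2-201 junction: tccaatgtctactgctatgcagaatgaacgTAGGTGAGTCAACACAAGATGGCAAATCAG
BMPR2-202 junction: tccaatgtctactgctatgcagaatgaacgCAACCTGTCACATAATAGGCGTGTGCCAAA

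TGFBR1 showed a similar pattern with less certainty. TGFBR1-201, with 426 codons, made up 33.8%, 50.3%, 42.3% and 43.3% of the gene's TPM with 9-cis retinoic acid, against 24.9%, 18.9%, 21.9% and 24.4% in undifferentiated cells. TGFBR1-209, with 507 codons, made up 46.3%, 31.7%, 41.0% and 38.4% against 56.0%, 59.0%, 59.2% and 59.6%. The groups did not overlap, and replicate 22 was the furthest from the undifferentiated libraries in both. The differences were 19.9 and -19.1 percentage points (limma, adjusted p = 0.0217 and 0.021), and each was called in 4 of 11 alternatives (highest adjusted p = 0.255 and 0.251 in limma). The calls were lost within lane 8 and without replicates 17, 18, 19, 20, 23 or 24, but not without replicate 22. TGFBR1-201 lacks exon 3, which codes for the segment that spans the membrane. That exon, at chr9:99132497-99132739 on the plus strand (GRCh38, GENCODE 29), has 243 bases in TGFBR1-209. Its first 12 bases, in capitals, are absent from TGFBR1-202, which has 503 codons.
TGFBR1 exon 3: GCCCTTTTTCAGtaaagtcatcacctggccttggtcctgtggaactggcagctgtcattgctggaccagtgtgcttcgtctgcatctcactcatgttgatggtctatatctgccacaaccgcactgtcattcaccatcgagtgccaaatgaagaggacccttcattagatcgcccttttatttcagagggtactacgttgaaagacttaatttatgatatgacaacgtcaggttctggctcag

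In all, 51 transcripts of 23 pathway genes could be tested for their share, and 5 of them (9.80%) in 3 genes were called, beside 2.32% of 23061 transcripts of all genes. The fifth was LTBP3-204, a transcript that retains an intron. It made up 12.6% ± 1.32 of LTBP3 with 9-cis retinoic acid and 22.8% ± 1.05 without (SD, n = 4 each; limma, adjusted p = 0.0138), and was called in 6 of 11 alternatives, but not within lane 8 or without replicates 17, 18, 20 or 22. The shares of a gene's transcripts add up to the whole, so the paired calls of BMPR2 and of TGFBR1 are not independent. Shares of transcripts are estimates that divide reads among overlapping sequences, so they carry more uncertainty than sums per gene.

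**Figure D3:**
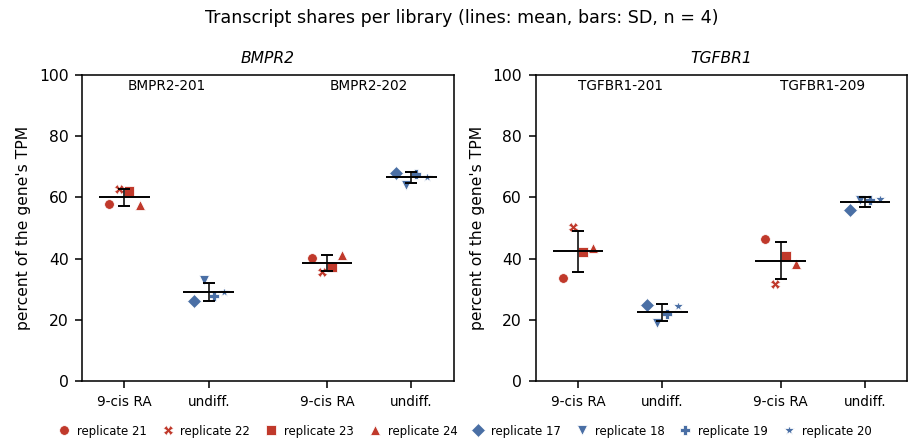
Share of each gene's TPM held by BMPR2-201 and BMPR2-202 (left) and TGFBR1-201 and TGFBR1-209 (right) in each library, in percent, with the mean and SD of 4 libraries and 9-cis retinoic acid left of undifferentiated. BMPR2-201 holds 57.5% to 62.7% in differentiated and 26.1% to 33.1% in undifferentiated libraries.

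The largest fall among the tested pathway genes was in TMEM100, whose link to ACVRL1 was not tested in these cells. TMEM100, a membrane protein that BMP signalling through ACVRL1 induces in mouse endothelium, had 6.29, 6.07, 6.64 and 6.34 TPM with 9-cis retinoic acid, against 81.6, 78.9, 73.3 and 79.2 TPM in undifferentiated cells. The libraries of each group lay within a narrow range, and the level in differentiated cells was 0.0810 of that in undifferentiated cells (-3.43 ± 0.05; limma, adjusted p = 2.93e-09). It ran from -3.61 to -3.40 over the alternatives. ACVRL1, a type I receptor for BMP9 and BMP10, had 2.60, 1.18, 1.04 and 1.54 TPM against 5.41, 3.56, 2.99 and 3.28 TPM. The groups did not overlap, though the highest differentiated library came close to the lowest undifferentiated one. ACVRL1 was called lower (-0.91 ± 0.22; limma, adjusted p = 0.00832), a call lost within lane 8 (-0.71; limma, adjusted p = 0.0742). ENG, or endoglin, a coreceptor that works with ACVRL1, moved the other way with 14.3, 14.7, 14.8 and 13.2 TPM against 7.90, 7.48, 8.60 and 7.33 TPM (0.79 ± 0.07; limma, adjusted p = 2.34e-05). Of 8 endothelial markers measured, CDH5, KDR, TEK, TIE1, VWF, ROBO4 and CLDN5 did not exceed 0.261 TPM in any library, while EGFL7 reached 22.3 to 29.3 TPM in differentiated and 10.5 to 12.7 TPM in undifferentiated libraries. TGFBR3, or betaglycan, the coreceptor of TGF-beta2 and inhibin, did not exceed 0.117 TPM.

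Among the SMADs that receptors phosphorylate, 1 of each branch rose. SMAD1, of the BMP branch, had 45.7, 34.8, 41.5 and 44.0 TPM with 9-cis retinoic acid, against 18.5, 21.1, 18.1 and 20.1 TPM in undifferentiated cells. SMAD3, of the TGF-beta branch, had 23.6, 16.2, 19.7 and 20.0 TPM against 11.7, 11.5, 11.7 and 11.8 TPM. In neither did the groups overlap, and replicate 22 was the lowest differentiated library in both. SMAD1 rose by 1.05 ± 0.09 and SMAD3 by 0.71 ± 0.10 (limma, adjusted p = 2.76e-05 and 0.000496). Within the BMP branch SMADs, SMAD1 made up 31.97% ± 0.827 of the summed level in differentiated cells and 20.4% ± 1.45 in undifferentiated cells (SD, n = 4 each), and SMAD3 made up 24.9% ± 1.76 and 17.1% ± 0.595 of SMAD2 and SMAD3 together.

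The other SMADs of these branches were not called. SMAD2 averaged 59.8 ± 4.11 TPM against 56.8 ± 2.02 TPM, SMAD5 26.3 ± 2.73 TPM against 25.5 ± 3.49 TPM, and SMAD9 62.3 ± 10.5 TPM against 50.5 ± 3.198 TPM (SD, n = 4 each). Their fold changes were 0.07 ± 0.06, 0.05 ± 0.11 and 0.28 ± 0.12 (limma, adjusted p = 0.341, 0.747 and 0.0876), and those of SMAD2 and SMAD5 were below 0 with both scalings. Without replicate 22, SMAD9 and SMAD2 were called higher, at 0.41 and 0.12 (limma, adjusted p = 0.000987 and 0.0357). SMAD4, the partner common to both branches, had 81.2, 47.5, 67.9 and 82.0 TPM with 9-cis retinoic acid, against 66.2, 77.2, 79.0 and 78.6 TPM in undifferentiated cells. The ranges overlapped, with replicate 22 the lowest of all 8, and SMAD4 was not called (-0.14 ± 0.17, and 0.03 without replicate 22; limma, adjusted p = 0.527 and 0.786). Its coding transcript SMAD4-201 held a mean of 16.0 TPM against 14.6 TPM, the rest being spread over other coding and non-coding transcripts. In replicate 22 the coding SMAD4-201, SMAD4-202 and SMAD4-209 were at 7.87, 12.3 and 0 TPM. Their means over the differentiated libraries were 16.0, 4.08 and 6.74 TPM.

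Feedback inhibitors did not move as one. SMAD6, an inhibitory SMAD that acts chiefly on BMP signalling, had 4.45, 4.19, 6.04 and 5.18 TPM with 9-cis retinoic acid, against 2.36, 2.50, 2.61 and 2.34 TPM in undifferentiated cells, with no overlap (0.78 ± 0.11; limma, adjusted p = 0.00046). BAMBI, a decoy receptor without a kinase domain, had 13.9, 18.1, 15.9 and 14.8 TPM against 9.50, 8.197, 9.88 and 9.35 TPM, again with no overlap (0.70 ± 0.09; limma, adjusted p = 0.000305). SMAD7, the inhibitory SMAD of both branches, averaged 9.48 ± 0.494 TPM against 9.73 ± 0.674 TPM (SD, n = 4 each) and was not called (-0.03 ± 0.07; limma, adjusted p = 0.712), except with quantile normalization, where it was lower (-0.26; limma, adjusted p = 0.0183). SMURF1, a ubiquitin ligase that degrades SMADs and receptors, was called higher at 12.5 ± 2.12 TPM against 9.51 ± 0.478 TPM (0.35 ± 0.12; limma, adjusted p = 0.0383), but its groups overlapped and 11 of 16 alternatives did not call it, both scalings, lane 8 alone and leaving out any library but replicate 22 among them. Without replicate 22 its rise was 0.46 (limma, adjusted p = 0.000597). SMURF2, its relative, was not called (0.15 ± 0.10; limma, adjusted p = 0.255) except without replicate 22 (0.24; limma, adjusted p = 0.00729). The secreted antagonists FST, which binds activins, and GREM1 and NOG, which bind BMPs, summed to at most 0.0755 TPM in any library.

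ID genes encode inhibitors of bHLH transcription factors, the class of the proneural factors, and are direct BMP targets in many cells. ID3 had 129.9, 175, 160.4 and 145 TPM with 9-cis retinoic acid, against 53.3, 49.7, 57.5 and 46.3 TPM in undifferentiated cells. ID1 had 40.3, 52.1, 57.5 and 45.6 TPM against 25.5, 20.3, 26.3 and 23.8 TPM. Both were higher in every differentiated library than in any undifferentiated one, by 1.54 ± 0.10 and 0.99 ± 0.12 (limma, adjusted p = 5.55e-06 and 0.000212). In these sums replicate 22 was the highest library for ID3 and the second highest for ID1. The protein-coding transcript ID3-201 had 102, 90.6, 136 and 118 TPM with 9-cis retinoic acid, with replicate 22 the lowest, against 36.9, 30.5, 39.2 and 37.3 TPM. The high sum of replicate 22 lay in the non-coding ID3-202, at 62.3 TPM there against 5.17 to 11.4 TPM in the other differentiated libraries. ID2 averaged 169 ± 7.396 TPM against 140.1 ± 9.80 TPM (SD, n = 4 each) and was called higher at 0.27 ± 0.06 (limma, adjusted p = 0.00444), but not with median-of-ratios scaling (0.14; limma, adjusted p = 0.216). ID4 was near 1 TPM, at 1.86 ± 0.132 TPM against 1.31 ± 0.197 TPM, and its call (0.31 ± 0.10; limma, adjusted p = 0.0335) was lost in 9 of 15 alternatives, both scalings, lane 8 alone and leaving out replicates 18, 19, 20, 23 or 24 among them. Together the 4 ID genes held 372 ± 32.7 TPM in differentiated and 217 ± 15.8 TPM in undifferentiated cells, and ID3 made up 40.9% ± 1.78 of that sum against 23.8% ± 1.12, ID2 45.6% ± 2.37 against 64.6% ± 1.15 (SD, n = 4 each).

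ID1 and SMAD6 are textbook BMP targets that rose together here, so the 250 bases before their start are shown, from the RefSeq promoters on GRCh38.p14. The windows are chr20:31605039-31605288 for ID1 and chr15:66701986-66702235 for SMAD6, both on the plus strand. Capitals mark GTCT or its reverse complement AGAC, the short SMAD box, which in SMAD6 join into the palindrome GTCTAGAC.
ID1: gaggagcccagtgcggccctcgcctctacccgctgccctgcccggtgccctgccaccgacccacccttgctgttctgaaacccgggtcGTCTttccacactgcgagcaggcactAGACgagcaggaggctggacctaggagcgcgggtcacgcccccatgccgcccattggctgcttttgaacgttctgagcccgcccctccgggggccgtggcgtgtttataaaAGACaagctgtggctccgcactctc
SMAD6: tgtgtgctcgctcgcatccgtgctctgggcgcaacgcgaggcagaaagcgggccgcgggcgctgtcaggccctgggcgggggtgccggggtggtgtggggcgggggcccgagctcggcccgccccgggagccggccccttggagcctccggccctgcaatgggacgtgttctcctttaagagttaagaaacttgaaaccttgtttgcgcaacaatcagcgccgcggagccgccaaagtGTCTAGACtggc

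In ID1 the matches began 162, 136 and 25 bases before the start, and in SMAD6 the palindrome began 12 bases before it. Both strands were searched. Promoters with GTCT or AGAC were 58 of the 74 promoters of 42 pathway genes in the table (78.4%), beside 77.5% of all 35116 promoters, a share near the background. The GC-rich SMAD motif GGCGCC was in 16 of the 74 (21.6%) and in 16.4% of all promoters. Neither the ID1 window nor the SMAD6 window holds GGCGCC. GTCTAGAC was in 1 of the 74, that of SMAD6, and in 0.182% of all promoters. GTCT and AGAC lie inside GTCTAGAC, so these counts overlap. The letters describe the windows only.

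**Figure D4:**
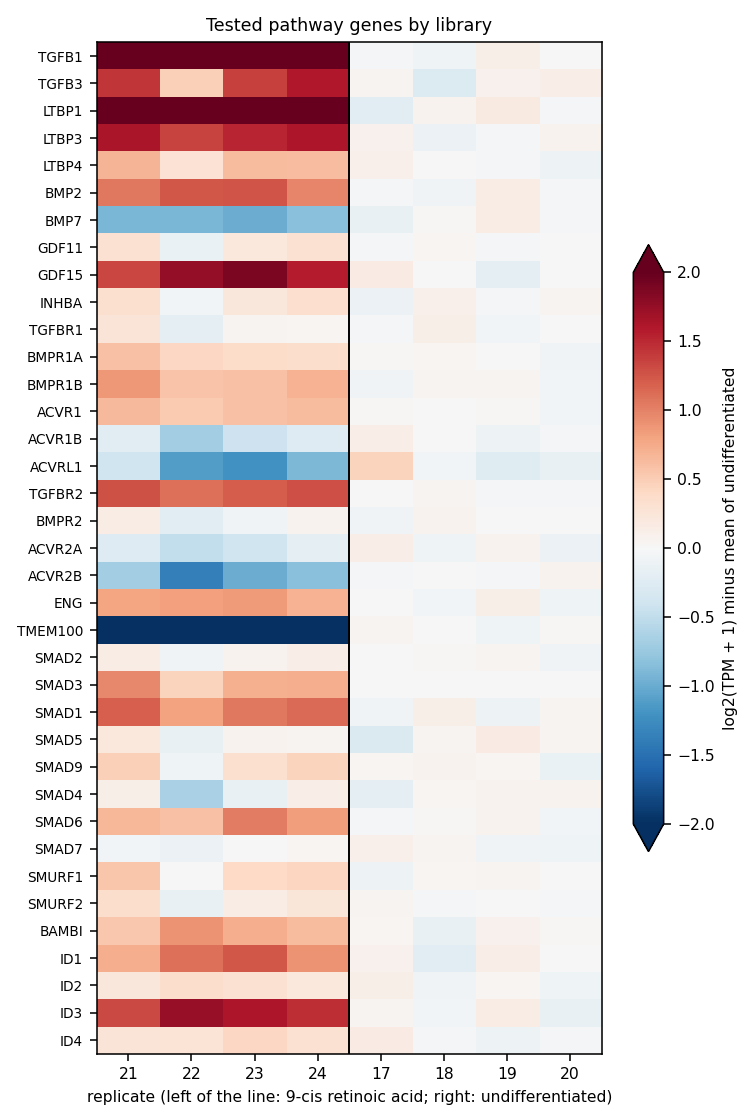
Log2(TPM + 1) of the 37 tested pathway genes (rows) in each library (columns, 9-cis retinoic acid left of the line), minus the mean of the undifferentiated libraries; colours saturate at -2 and 2. Replicate 22 is paler than replicates 21, 23 and 24 for TGFB3 and SMAD1, and blue for SMAD4, GDF11 and SMURF2.

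Wider lists of pathway genes were read beside the 47, in the same fit. Of the genes tested, PMEPA1, SKIL and LTBP2 each stand in 2 of these lists. Of 36 other extracellular binding proteins, antagonists and activators, 20 were tested, and 14 were higher and 3 lower, beside 33.9% and 17.4% of all tested genes, with a median of 1.20. FSTL3, which binds activins, averaged 47.8 ± 2.86 TPM in differentiated and 3.09 ± 0.353 TPM in undifferentiated cells (SD, n = 4 each), a rise of 3.58 ± 0.08 (limma, adjusted p = 1.68e-08). FSTL1, a follistatin relative, and FBN1, the fibrillin that anchors latent complexes, rose by 2.51 and 2.44 (limma, adjusted p = 6.19e-07 and 1.55e-08).

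Of 23 genes known as TGF-beta targets in other cells, 20 were tested, and 17 were higher and 1 lower, beside 33.9% and 17.4% of all tested genes, with a median of 1.38. TGFBI, a matrix protein named for its induction by TGF-beta, averaged 7.98 ± 0.480 TPM in differentiated and 0.0660 ± 0.0379 TPM in undifferentiated cells (SD, n = 4 each; 3.07 ± 0.09; limma, adjusted p = 5.21e-08), so it entered the test through its level in differentiated cells. IGFBP3, an IGF binding protein, FN1, or fibronectin, and CDKN1A, the cell cycle inhibitor p21, rose by 2.52, 2.11 and 2.11 (limma, adjusted p = 6.62e-08, 1.71e-07 and 1.34e-07). PMEPA1, a feedback inhibitor of TGF-beta signalling and a member of this list, was not called (-0.07), and the crosslinking enzyme LOX was lower (-1.88); both are named after their values were seen. LOX averaged 0.621 TPM against 4.96 TPM and entered the test through its level in undifferentiated cells. COL1A1 of this list is also one of the 3 mesenchymal markers called higher, and their part in these rises was not tested.

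Of 26 genes known as BMP targets in other cells, 19 were tested, 8 of them among the 47 genes above. Of the 19, 9 were higher and 5 lower, beside 33.9% and 17.4% of all tested genes, with a median of 0.27. Most of the higher genes were already given above: ID1, ID2, ID3, ID4, SMAD6 and BAMBI. The shared SMAD7 and SMAD9 were not called, and all 5 lower genes lay outside the 47, where falls outnumbered rises. HES1, a repressor also driven by Notch, rose to 19.6 ± 1.35 TPM in differentiated cells, against 2.44 ± 0.488 TPM in undifferentiated cells (SD, n = 4 each; 2.59 ± 0.11; limma, adjusted p = 3.81e-07). HAND1, a bHLH transcription factor, fell to 17.9 ± 1.69 TPM in differentiated cells, against 59.1 ± 2.92 TPM in undifferentiated cells (SD, n = 4 each; -1.67 ± 0.07; limma, adjusted p = 4.45e-07). With median-of-ratios scaling the list gave 7 higher and 6 lower (27.1% and 26.1% of all genes), with a median of 0.14, and without replicate 22 it gave 11 and 5 (39.0% and 18.1%).

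Of 32 other intracellular regulators, 28 were tested, and 9 were higher and 5 lower, with a median of 0.10, all close to the values over all tested genes (33.9%, 17.4% and 0.10). Without replicate 22, 11 were higher and 4 lower with a median of 0.17, beside 0.15 for all genes. With median-of-ratios scaling 7 were higher and 8 lower, and with quantile normalization 6 and 10. LDLRAD4, which keeps SMAD2 and SMAD3 from the receptor, ZNF423, a SMAD partner in BMP responses, and TGIF2, a SMAD corepressor, changed by -1.48, -1.02 and -0.79 (limma, adjusted p = 5.81e-05, 1.91e-06 and 0.000107). LDLRAD4 averaged 0.356 TPM against 2.79 TPM and entered the test through its level in undifferentiated cells. NEDD4L, a ubiquitin ligase, was called higher at 0.69 (limma, adjusted p = 0.0345), a call lost within lane 8, with quantile normalization and without replicates 17, 18, 19, 20, 21 or 24. Of 13 other receptors and coreceptors, 5 were tested and 3 higher, beside 33.9% of all tested genes, with a median of 0.27; with quantile normalization 2 were higher and 1 lower, with a median of 0.036. NRP1, a coreceptor that also binds semaphorins and VEGF, led them at 16.2 ± 2.01 TPM against 1.70 ± 0.501 TPM (SD, n = 4 each; 2.69 ± 0.15; limma, adjusted p = 1.84e-06), followed by NEO1, a receptor of RGM proteins, at 0.64 and ROR2 at 0.27 (limma, adjusted p = 0.000467 and 0.029). ROR2, a receptor tyrosine kinase of WNT5A, was not called with either scaling, within lane 8 or without replicates 17, 18, 20 or 23. Of 20 other ligands, 19 were matched and only 3 tested, and the single call was GDF9, an oocyte growth factor, which was lower (-0.55; limma, adjusted p = 0.0261). This call was lost within lane 8 and without replicates 17, 20, 21, 22 or 23.

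**Figure D5:**
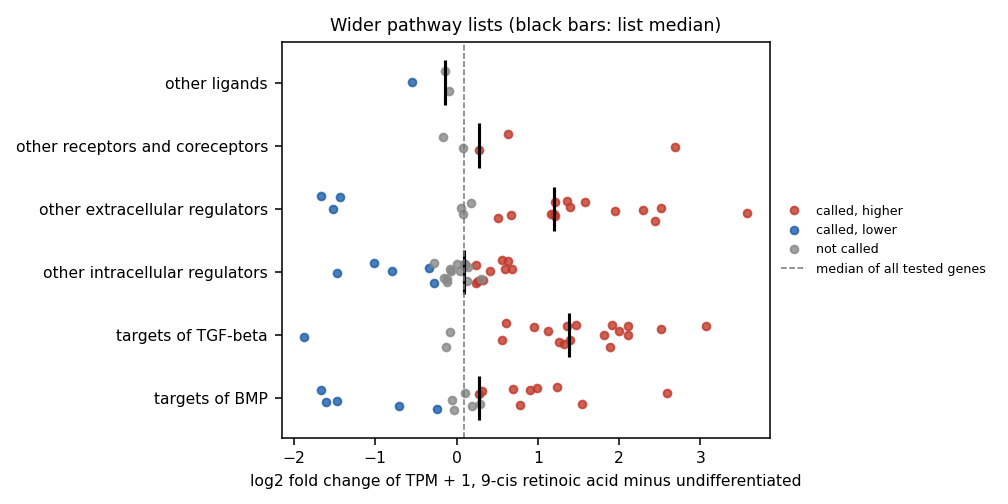
Log2 fold change of TPM + 1 (9-cis retinoic acid minus undifferentiated) of the tested genes of 6 wider lists, 1 point a gene, with the list median as a black bar and the median of all tested genes (0.10) as a dashed line. Targets of TGF-beta and extracellular regulators have medians of 1.38 and 1.20, and intracellular regulators lie around the dashed line.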

How the data were processed

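mRNA sequencing of 8 libraries of SH-SY5Y cells was analysed, 4 given 9-cis retinoic acid and 4 undifferentiated, grouped by the cell type label. The authors deposited TPM for 194993 Ensembl transcripts, each library summing to 1000000. Per the submitters' processing notes, FastQC 0.11.2, Salmon and genome build GRCh37 were used; the Salmon version, its settings and any use of strand in counting were not given in the sources used here. Libraries were made with a stranded kit, per the labels' protocols. Salmon divides reads among similar sequences, so close paralogs and overlapping or antisense genes have uncertain values. Transcripts were matched by identifier without version to GENCODE 29 (GRCh38), which served for names, gene membership and positions: 180930 (92.8%) matched, holding 93.2% to 95.0% of a library's TPM. TPM were summed per gene.

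For genes averaging at least 1 TPM, limma 3.58.1 (R 4.3.3) was run on log2(TPM + 1) with an intensity trend, two-sided, with Benjamini-Hochberg adjustment over all tested genes and calls under 0.05. Transcript shares were tested with limma after an arcsine square root transform, in genes of 5 TPM or more per group and transcripts with mean shares of 10% to 90%, a call also needing a difference of 10 percentage points. Python 3.11.15 and pandas 2.3.3 served for tables. The steps were also tested on simulated data. Simulated log2 changes of 0.5 and -0.5 were recovered in 30.0% and 45.0% of 40 genes each, and changes of 1 and -1 in 92.5% and 85.0%. A gene that was not called may therefore still have changed by a small amount. Alternatives were other pseudocounts, filters and scalings, no trend, lane 8 alone and leaving out each library. Named were all listed genes, up to 4 called genes of each of 6 wider lists with the largest changes, and every called transcript; a few of these genes are not reported here. The genes, lists and tests were chosen with earlier results of these data known.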

Additional observations from a re-analysis of the deposited data

Results flagged for a closer look

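In 108 groups of 4 values, the library furthest out was compared with the range of its group, and 4 stood apart, while chance gives about 1 in 20 groups. SMAD4 in undifferentiated replicate 17 was at 66.2 TPM, below the 77.2 to 79.0 TPM of the other undifferentiated libraries. SMAD9 in undifferentiated replicate 20 was at 45.8 TPM, below 51.7 to 52.8 TPM. BMP2 in undifferentiated replicate 19 was at 0.504 TPM, above 0.299 to 0.325 TPM. GDF9 in 9-cis retinoic acid replicate 24 was at 1.91 TPM, above 0.904 to 1.03 TPM in the others of that group. Without the library concerned SMAD4 and SMAD9 were still not called, and BMP2 was still called.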

How the results depend on the processing

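Of 855 alternative values of 54 named genes, 781 kept their direction and their side of the threshold, 51 lost the call, 8 gained one and 15 changed sign, and 35 genes kept both throughout. The genes that changed sign were not called with all libraries. With median-of-ratios scaling the log2 fold change became -0.091 for TGFBR1, -0.059 for SMAD2 and -0.077 for SMAD5. With quantile normalization it became -0.035 for INHBA, -0.10 for TGFBR1, -0.039 for SMAD2 and -0.11 for SMAD5. Within lane 8 it became -0.066 for SMAD5 and 0.043 for SMAD7. Leaving out each library in turn gave ranges of -0.037 to 0.11 for TGFBR1 (lowest without replicate 21), -0.074 to 0.048 for BMPR2 (above 0 without replicates 18 or 22), -0.048 to 0.11 for SMAD5 (lowest without replicate 17) and -0.23 to 0.032 for SMAD4 (above 0 without replicate 22). Over all genes, 2970 were lower with all libraries, 5098 with quantile normalization and 1914 within lane 8, while the higher calls numbered 5791, 4173 and 4418; with median-of-ratios scaling 4628 were higher and 4455 lower. Within lane 8, with 2 undifferentiated libraries, 3 pathway genes were lower, against 6. Called transcripts numbered 5 with all libraries, 2 within lane 8 and 2 to 5 when each library was left out. The cause was not tested. No paired analysis was possible because the groups share no replicate number. Depth is unknown, so the counting error of values near 0 has no stated size.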
